A study of Mus musculus with 6 samples.

Results

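The genes described here are the ATF4 programme of amino acid supply, a set of 42 mouse genes chosen by name for their link to the transcription factor ATF4 and sorted into 14 regulators and stress genes, 9 genes of amino acid synthesis, 6 amino acid transporters and 13 cytosolic aminoacyl-tRNA synthetases. Of the 42, 39 had an array probe annotated with that symbol alone and 38 had a probe bright enough to test, out of 19057 genes with a probe and 9756 tested genes. Gdf15, Pycr1 and Slc7a5 were not analysed here, and the only probe of Psph, the last enzyme of serine synthesis, was above background on 0 of 6 arrays.

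RNA came from cancer cells of mouse origin carrying rat her-2/neu, an oncogenic receptor tyrosine kinase. One group of 3 arrays held cells exposed for 6 h to 8 µM withaferin A, a plant-derived steroidal lactone found in Withania somnifera, and the other group of 3 arrays held untreated cells of the same kind. All cells grew in medium with 20% serum and were used at early passages. The labels name no vehicle, do not say whether the cells are 1 clone or which passage belongs to which array, and describe separate cultures only through the passages. A p-value therefore measures the spread between these arrays, which may be partly technical.

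As background, cells that run short of amino acids or meet other stresses phosphorylate the translation factor eIF2, which slows protein synthesis in general while the mRNA of ATF4 is translated more. ATF4 then pairs with C/EBP proteins on a composite DNA element, the CEBP-ATF response element, near genes that make, import and charge amino acids. The same programme includes its own brakes, among them TRIB3 and the phosphatase subunit encoded by Ppp1r15a, and the factor CHOP (the product of Ddit3), which is linked to cell death. An array reads mRNA only, so neither eIF2 phosphorylation nor the level of ATF4 protein was measured.

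To show where these genes carry the letters of that element, the sequence from 250 bases before to 50 bases after each annotated start was searched for TGATGNAA on both strands. In the RefSeq promoter table for GRCm38.p6, 34 of the 42 genes had an entry and 12 of the 34 held the motif (35.3%), against 1219 of all 27025 genes in that table (4.51%). It was found for 4 of 14 regulators, 2 of 9 synthesis genes, 1 of 3 transporters with an entry and 5 of 8 tRNA synthetases with an entry. Among the cytosolic synthetases outside the set it was found for 0 of 5, and among the mitochondrial ones for 0 of 14. Other genes linked to ATF4 held it in 5 of 14 cases (35.7%), and other amino acid transporters in 2 of 17, Slc7a11 among them. The genes were listed because of known links to ATF4, so a raised share of its motif is a description of the list, and a match is neither a bound site nor a cause.

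3 promoters are printed because their genes recur in the results: Slc1a4 had the smallest p of the members, Chac1 the widest spread among untreated arrays, and Asns is the textbook example of amino acid control. They lie at chr11:20332710-20332963 on the minus strand (Slc1a4), chr2:119350992-119351241 on the plus strand (Chac1) and chr6:7693210-7693459 on the minus strand (Asns) of GRCm38.p6. Each is written 5′ to 3′ on the strand of its gene, with the motif in capitals. Counted from the annotated start as position 1, the motif spans positions -4 to 4 in Slc1a4, -193 to -186 in Chac1 and -23 to -16 in Asns.
Slc1a4: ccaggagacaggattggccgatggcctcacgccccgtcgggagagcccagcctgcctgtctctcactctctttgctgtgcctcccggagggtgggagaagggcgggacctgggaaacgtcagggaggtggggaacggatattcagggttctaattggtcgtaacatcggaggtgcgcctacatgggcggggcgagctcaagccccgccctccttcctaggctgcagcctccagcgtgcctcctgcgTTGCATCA
Chac1: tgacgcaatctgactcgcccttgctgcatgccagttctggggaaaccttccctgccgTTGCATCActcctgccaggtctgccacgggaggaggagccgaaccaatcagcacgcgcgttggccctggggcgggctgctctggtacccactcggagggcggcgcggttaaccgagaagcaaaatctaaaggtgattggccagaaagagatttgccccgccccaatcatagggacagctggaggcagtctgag
Asns: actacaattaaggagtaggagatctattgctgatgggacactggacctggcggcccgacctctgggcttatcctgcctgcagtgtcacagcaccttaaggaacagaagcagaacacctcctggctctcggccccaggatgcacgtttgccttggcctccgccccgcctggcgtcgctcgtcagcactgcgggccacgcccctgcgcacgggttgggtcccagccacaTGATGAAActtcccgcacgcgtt

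Windows of 30 bases show the motif and the bases around it in 7 more of the tested members that held it. The capitals again mark the motif, whose likeness between genes was set by the search. Of the sequences printed, Asns and Yars read TGATGNAA on the strand of the gene, while the others printed carry its reverse complement, TTNCATCA. Vldlr, whose log2 change was negative, is included so that the list does not hold positive changes alone.
Trib3 (chr2:152344028-152344057, minus strand): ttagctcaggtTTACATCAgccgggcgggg
Nupr1 (chr7:126625562-126625591, minus strand): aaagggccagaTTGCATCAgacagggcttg
Vldlr (chr19:27216809-27216838, plus strand): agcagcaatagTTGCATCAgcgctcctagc
Gars (chr6:55037960-55037989, plus strand): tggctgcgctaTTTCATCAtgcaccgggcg
Iars (chr13:49682126-49682155, plus strand): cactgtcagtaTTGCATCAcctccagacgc
Tars (chr15:11399655-11399684, minus strand): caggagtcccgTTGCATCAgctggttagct
Yars (chr4:129189895-129189924, plus strand): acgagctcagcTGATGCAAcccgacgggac

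Levels are log2 intensities after background correction and quantile normalization, and a level is compared between arrays for 1 probe, never between genes. Before normalization the median intensity over tested probes was 191.8 to 202 on withaferin A arrays and 218.5 to 235.9 on untreated arrays, and 18275 to 18558 probes on withaferin A arrays and 18608 to 20104 on untreated arrays were above background. Of 10 epithelial markers 8 were above background on all 6 arrays (Krt8 and Krt18 among them), while Epcam was on 0. The sum of the normalized intensities of the list was 12230 to 16320 on withaferin A arrays and 15510 to 18190 on untreated arrays. Of 8 fibroblast markers 2 were above background on all arrays, Pdgfra and Dcn, while Col1a1 and Col3a1 were on 0; the list summed to 1663 to 2193 on withaferin A arrays and 3029 to 5040 on untreated arrays. Both detected fibroblast markers fell, Dcn 2.73-fold lower (limma adjusted p = 0.00778, and 0.0614 with no filter on dim probes) and Pdgfra 2.14-fold lower (adjusted p = 0.0327). Pdgfra no longer passed when withaferin A array 1 (0.108) or 2 (0.110) or untreated array 2 (0.0897) or 3 (0.121) was left out, with its probes averaged (0.120), or with no filter (0.135). No immune or endothelial marker was above background on all 6 arrays (0 of 5 and 0 of 6 annotated), and Ptprc and Pecam1 were on 0. The immune list summed to 123.7 to 131.3 on withaferin A arrays and 118 to 121.4 on untreated arrays, and the endothelial list to 153.3 to 169.5 on withaferin A arrays and 147.1 to 153.1 on untreated arrays. These sums are mostly background, since 4 of the 5 immune and 4 of the 6 endothelial markers were above background on 0 arrays. In bulk RNA, fewer cells of a type and less RNA per cell cannot be told apart, and the part of these lists in the results below was not tested. Across all tested genes, 666 passed the limma test at an adjusted p under 0.05 (6.83%), 274 of them higher after withaferin A (2.81%) and 392 lower (4.02%).

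2 of the 38 tested members rose after withaferin A, the amino acid transporter gene Slc1a4 and the mTORC1 inhibitor gene Ddit4, and 0 fell. The share that rose is to be read against the 2.81% of all genes that did. The other 36 did not pass, although 16 of the 38 members had an unadjusted p under 0.05, against 2532 of 9756 genes. Fitted log2 changes were positive for 35 of 38 members (92.1%), against 50.7% of all tested genes, and their median was 0.59, against 0.0054. Without normalization between arrays, which moved the median of all genes to -0.23, 33 of the 38 were positive. Of the members, 21 had several tested probes, and 29 of the 31 further probes had the same sign as the probe used. Slc1a4 and Ddit4 had 1 probe each. Members also varied within each group. Their median SD over 3 arrays was 0.42 after withaferin A and 0.50 in untreated cells, while the medians over all tested genes were 0.19 after withaferin A and 0.21 in untreated cells. Precision is limited by the number of arrays, and with 3 in each group an exact permutation test of 1 gene could not go under 0.1.

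**Figure D1:**
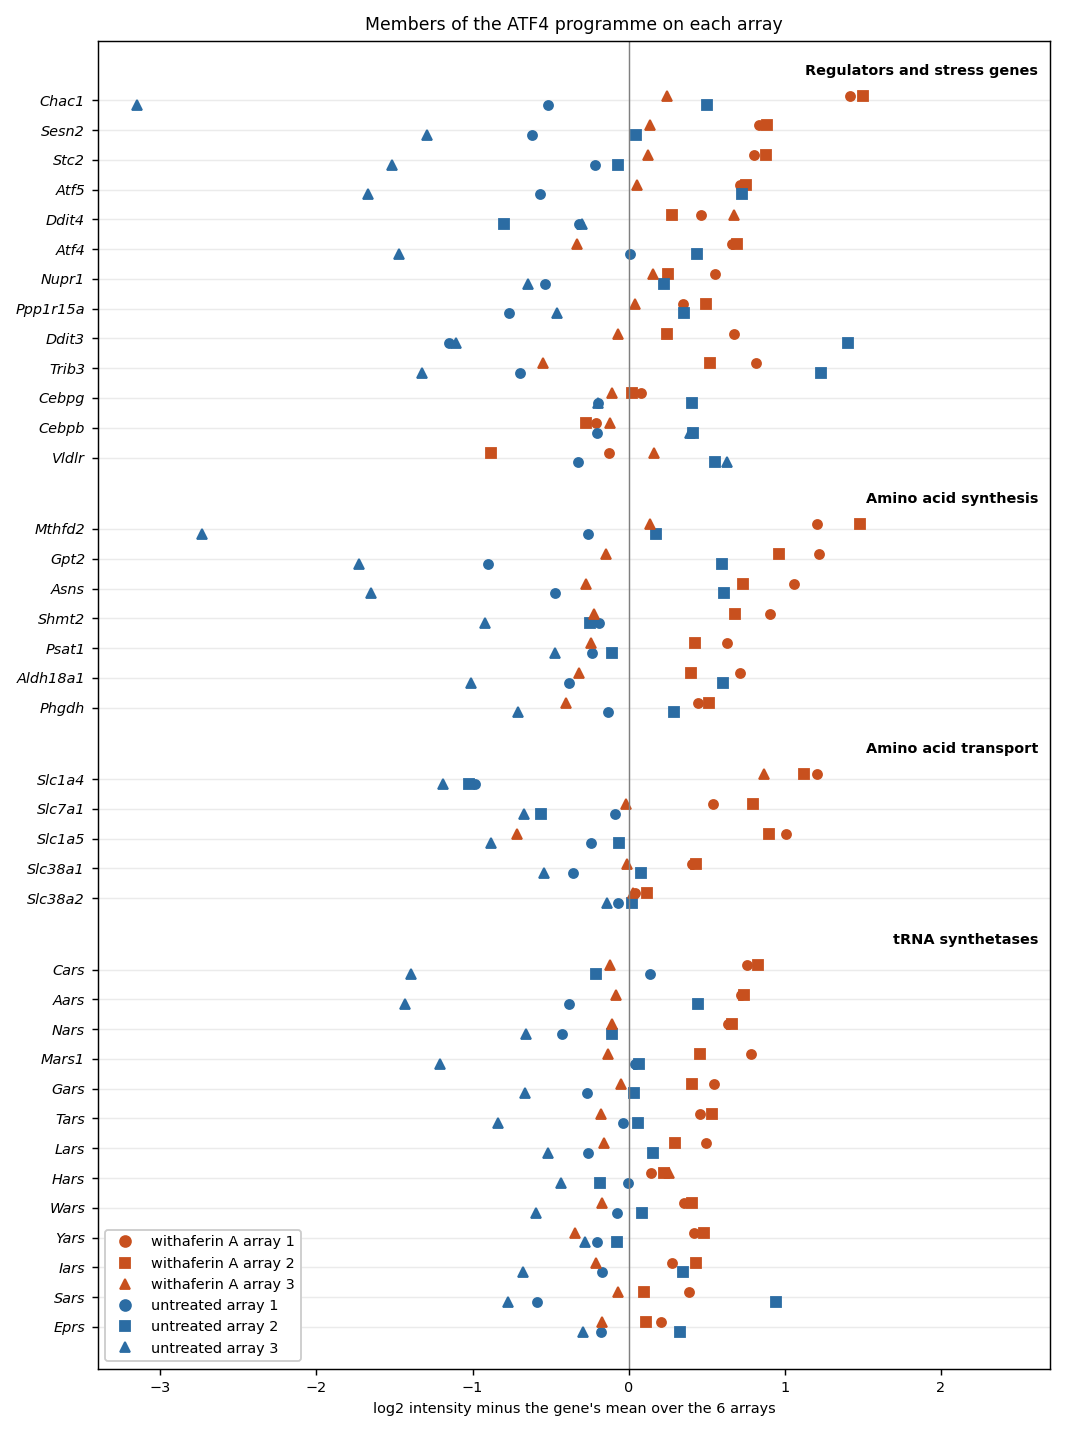
Level of each tested member on each array, as log2 intensity minus that gene's mean over the 6 arrays (x axis), with withaferin A arrays in orange above untreated arrays in blue and 1 symbol per array number. Untreated array 3 lies at the left of most rows (the lowest untreated value in 32 of 38), untreated array 2 at the right of the blue points (the highest in 31 of 38), and Slc1a4 has its groups far apart with little spread in either.

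The variation had an order that most members shared. Among untreated arrays, array 2 held the highest value for 31 of 38 members (81.6%), against 37.2% of all tested genes, and array 3 the lowest for 32 (84.2%), against 36.6%. Both held at once for 27 members (71.1%) and for 20.8% of all genes. Among withaferin A arrays, array 3 held the lowest value for 34 of 38 members (89.5%), against 39.6% of all genes. Averaged over the 38 members, the log2 level was 9.99, 9.91 and 9.33 on withaferin A arrays 1 to 3, against 9.05, 9.59 and 8.48 on untreated arrays 1 to 3. By this mean, untreated array 2 lay above withaferin A array 3, so the groups overlapped.

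The spread among untreated cells was often larger than the difference between groups. The 3 untreated values of a member spanned more than 1 log2 unit (2-fold) for 18 of 38 members (47.4%), against 5.48% of all tested genes, and the withaferin A values did so for 10 members (26.3%), against 5.47%. The shares were not matched for probe brightness. A wide untreated span was not particular to the members. It was seen for 7 of 13 other genes linked to ATF4 (53.8%) and 14 of 16 hypoxia and glycolysis genes (87.5%). In the other lists described below the share was 0% to 33.3%. For 7 of 38 members (18.4%) the change between groups was larger than the untreated range: Ddit4, Psat1, Shmt2, Slc7a1, Slc1a4, Nars and Yars. Over all tested genes this share was 31.7%. Yars and Slc7a1 were dim. Yars on withaferin A array 3 (4.92) lay below every untreated value (5.06, 5.19 and 4.98), and Slc7a1 was above background on 1 untreated array. All 3 withaferin A values lay above all 3 untreated values for 7 members (Sesn2, Ddit4, Stc2, Slc7a1, Slc1a4, Slc38a2 and Hars), on the probe that represents each, a share to be read against the 14.9% of all genes with that order. The reverse order was seen for 0 members, against 15.8% of all genes. Without normalization between arrays the groups did not overlap for 3 members, a setting in which the share over all genes was not counted. Hars was dim too. Before any normalization its probe read 106.6 on untreated array 1, above withaferin A arrays 1 to 3 (98.6, 103 and 105.2).

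**Figure D2:**
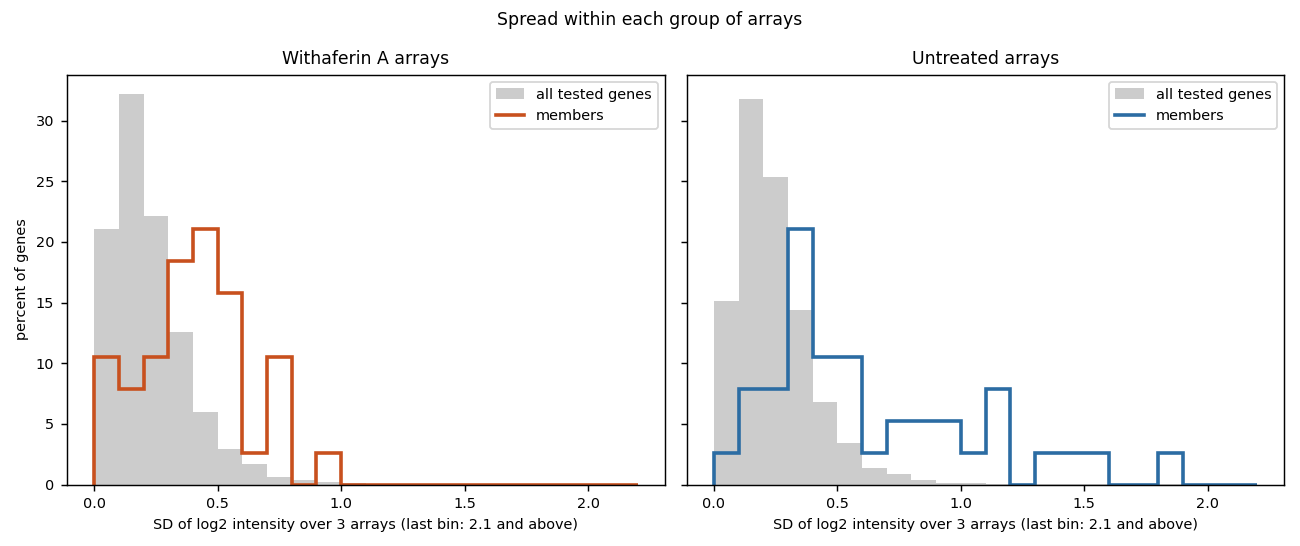
SD of the log2 intensity over 3 arrays (x axis) as a percent of genes (y axis), for the 38 tested members (line) and all 9756 tested genes (grey), in withaferin A arrays on the left and untreated arrays on the right. The members lie to the right of the grey bars in both groups, with medians of 0.42 after withaferin A and 0.50 in untreated cells against 0.19 and 0.21 over all genes, and the right tail is longer in untreated cells.

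Set against single arrays, the number of members that were higher depended on which arrays were compared. Withaferin A array 1 was higher than untreated array 1 for 37 of 38 members, than untreated array 3 for 36 and than untreated array 2 for 28. Withaferin A array 2 was higher than untreated arrays 1 and 3 for 36 members each and than untreated array 2 for 30. Array 3 of the withaferin A group was higher than untreated array 3 for 35 members, than untreated array 1 for 27 and than untreated array 2 for 9, the only one of the 9 combinations in which fewer than 27 members were higher. Over all tested genes these shares lay between 48.2% and 51.3%. Untreated array 2 was above all 3 withaferin A arrays for 7 members (Ddit3, Trib3, Cebpb, Cebpg, Vldlr, Eprs and Sars), untreated array 3 for 2 (Cebpb and Vldlr) and untreated array 1 for 0.

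Without untreated array 2, 7 members passed the limma test, all higher (Atf5, Ddit3, Sesn2, Ppp1r15a, Nupr1, Gpt2 and Slc1a4), beside 1.88% of all genes called higher in that fit. Without withaferin A array 3, 10 members passed, all higher (Sesn2, Ddit4, Stc2, Psat1, Shmt2, Slc7a1, Slc1a4, Slc1a5, Nars and Yars), beside 3.79% of all genes. Without withaferin A array 1 or without untreated array 3, Slc1a4 was the only member that passed. Whichever of the 6 arrays was left out, Slc1a4 passed, and no other member did so every time. In the value table the authors deposited, whose columns are centred within same-numbered arrays and so allow only a paired test, limma called 27 members higher and Cebpb lower, beside 12.5% and 15.1% of all genes. With replicate number as a block in the fit used here, 14 members passed, all higher, beside 400 of 9756 genes called higher. The number that passed thus depends on which arrays are kept and on whether same-numbered arrays are treated as pairs. The labels do not say whether they are pairs.

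Of the regulators and stress genes, 1 of 13 rose (Ddit4), 0 fell and 12 did not pass. 10 of the 13 fitted changes were positive, with a median log2 change of 0.64. The mean of the 13 was 10.45, 10.33 and 9.94 on withaferin A arrays 1 to 3, against 9.44, 10.33 and 8.98 on untreated arrays, so that untreated array 2 reached the level of withaferin A array 2. The untreated range was over 1 log2 unit for 8 of the 13.

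Atf4, the transcription factor of the programme, had log2 levels of 12.42, 12.45 and 11.43 on withaferin A arrays 1 to 3, against 11.76, 12.20 and 10.28 on untreated arrays 1 to 3. Its highest untreated value lay between the withaferin A values, and the groups overlapped (log2 change 0.69, 95% interval -0.34 to 1.71, limma adjusted p = 0.391). Atf5, a related bZIP factor that is itself induced under eIF2 phosphorylation, had 11.79, 11.84 and 11.14 after withaferin A, against 10.52, 11.81 and 9.41 in untreated cells. Its change of 1.01 had an interval of -0.10 to 2.12 (adjusted p = 0.243). Untreated array 2 stood level with withaferin A arrays 1 and 2, while untreated arrays 1 and 3 were below every treated array.

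Ddit4, also called REDD1, restrains the growth kinase complex mTORC1. Its levels were 11.66, 11.48 and 11.87 after withaferin A, against 10.88, 10.40 and 10.90 in untreated cells. The groups did not overlap, with a 1.92-fold higher mean (log2 change 0.94, SE 0.19, limma adjusted p = 0.0223). Ddit4 did not follow the order of most other members: its lowest untreated value was on array 2 and its highest treated value on withaferin A array 3. In both groups it was lowest on array 2 and highest on array 3, the order of the hypoxia and glycolysis mean given below. A link between Ddit4 and that list was not tested. The promoter entry of Ddit4 held no match to the motif. Ddit4 no longer passed when untreated array 2 (adjusted p = 0.0544), untreated array 3 (0.0518) or withaferin A array 1 (0.0893) was left out, or with no filter on dim probes (0.0779).

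Chac1, which breaks down glutathione and whose promoter is printed above, had the widest untreated range of the members. Its levels were 12.11, 12.19 and 10.94 after withaferin A, against 10.17, 11.19 and 7.54 in untreated cells, where array 2 exceeded array 3 by 3.65 log2 units, or 12.5-fold. Withaferin A array 3 lay below untreated array 2, so the groups overlapped. The fitted change of 2.11 was nearly as large as that of Slc1a4 but had an SE of 0.77 and an interval of 0.39 to 3.83 (limma adjusted p = 0.133).

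Sesn2 and Stc2 had the next largest positive changes of the regulators, and neither passed. For Sesn2, whose product senses leucine and inhibits mTORC1, the values were 7.31, 7.36 and 6.61 after withaferin A, against 5.86, 6.53 and 5.19 in untreated cells. All treated values were above all untreated ones, by a narrow margin on withaferin A array 3, with a change of 1.24 (SE 0.33, limma adjusted p = 0.0567). For Stc2, a secreted glycoprotein gene, they were 8.17, 8.25 and 7.49 after withaferin A, against 7.15, 7.30 and 5.85 in untreated cells, again with no overlap (log2 change 1.20, SE 0.36, adjusted p = 0.0850).

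The stress factor CHOP and the brakes of the programme had their highest untreated level on array 2. Ddit3, which encodes CHOP, had 8.85, 8.42 and 8.10 after withaferin A, against 7.02, 9.57 and 7.06 in untreated cells. Trib3, a pseudokinase that inhibits ATF4 and AKT, had 11.64, 11.34 and 10.27 after withaferin A, against 10.12, 12.05 and 9.50 in untreated cells. For both genes untreated array 2 was above every withaferin A array while untreated arrays 1 and 3 were below every one. The changes were 0.57 (95% interval -0.74 to 1.88) for Ddit3 and 0.53 (-0.78 to 1.84) for Trib3, with adjusted p of 0.588 and 0.623 by limma. Ppp1r15a, which encodes the GADD34 subunit that directs a phosphatase to eIF2, had 7.32, 7.46 and 7.01 after withaferin A, against 6.20, 7.32 and 6.51 in untreated cells (log2 change 0.58, adjusted p = 0.224). There untreated array 2 was level with withaferin A array 1.

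The remaining regulators had changes between -0.57 and 0.64, and none passed. Nupr1, a small chromatin-associated stress protein gene, was the highest of them (log2 change 0.64, limma adjusted p = 0.142). The C/EBP genes, whose products are partners of ATF4 on its element, had changes near or below 0. Cebpb had 12.73, 12.66 and 12.81 after withaferin A, against 12.73, 13.35 and 13.32 in untreated cells (log2 change -0.40, adjusted p = 0.235). Cebpg was close to level, with a change of -0.0053 and an interval of -0.44 to 0.43, and its sign turned under other settings (0.047 with median scaling). Vldlr, a lipoprotein receptor gene that is an ATF4 target in other settings, had a change of -0.57 (adjusted p = 0.302).

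**Figure D3:**
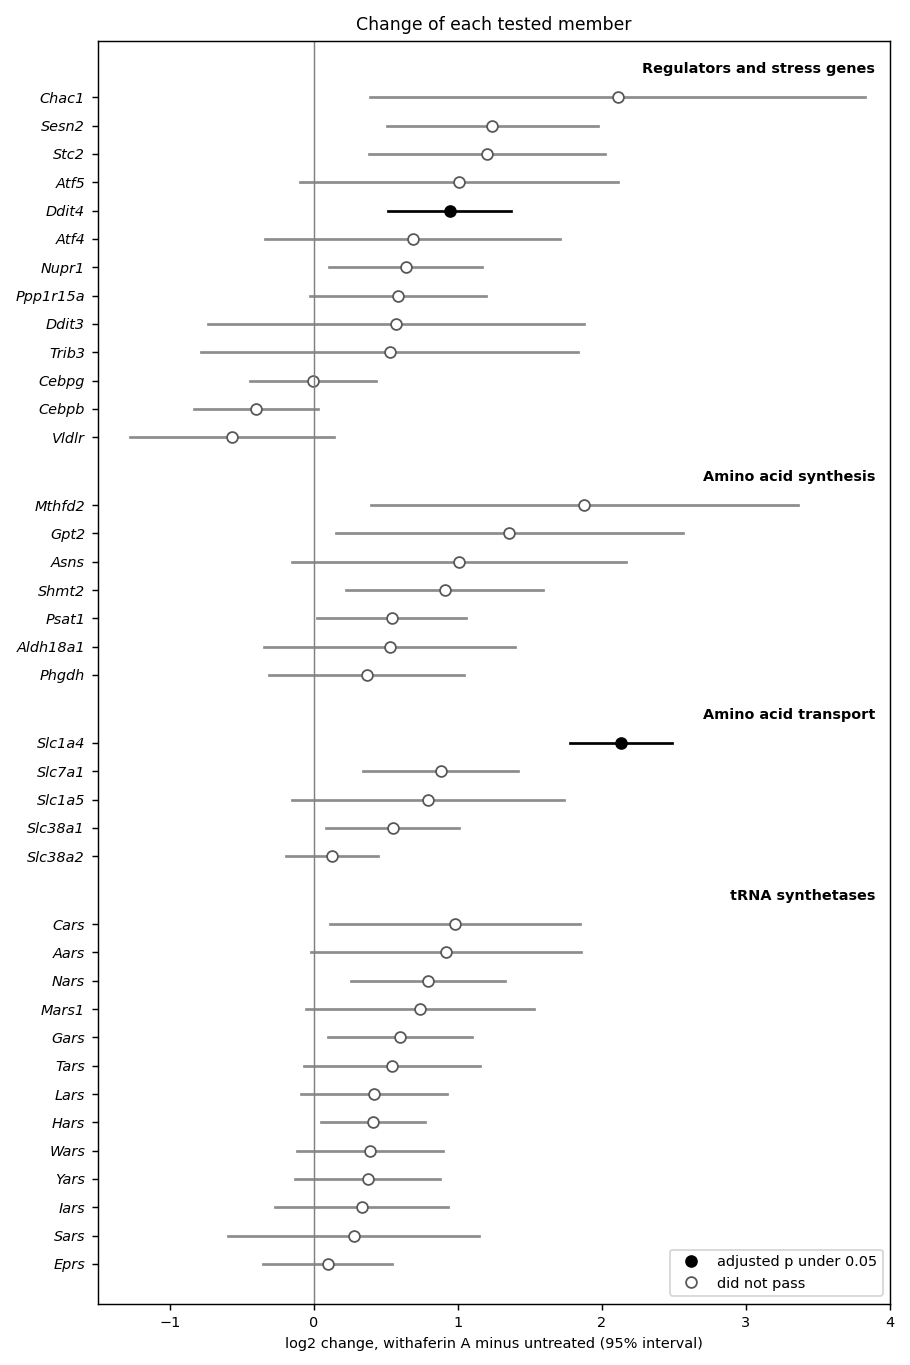
Log2 change after withaferin A, as withaferin A minus untreated (x axis), of each tested member with its 95% interval from limma, sorted within the 4 groups of members. Filled points passed at an adjusted p under 0.05 over all tested probes (Slc1a4 at 2.13 and Ddit4 at 0.94); Chac1 at 2.11 has an interval several times as wide as that of Slc1a4.

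Of the genes of amino acid synthesis, 0 of 7 passed, with 7 of 7 changes positive and the highest median of the 4 groups, a log2 change of 0.91. Their mean was 10.65, 10.51 and 9.56 on withaferin A arrays 1 to 3, against 9.40, 10.04 and 8.45 on untreated arrays. Untreated array 3 was the lowest untreated array for all 7 and withaferin A array 3 the lowest treated array for all 7. The untreated range was over 1 log2 unit for 5 of 7.

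Mthfd2, a mitochondrial enzyme of one-carbon metabolism, had 11.77, 12.05 and 10.70 after withaferin A, against 10.30, 10.74 and 7.83 in untreated cells. Its untreated range of 2.91 log2 units (7.49-fold) exceeded its change of 1.88 (95% interval 0.40 to 3.36, limma adjusted p = 0.123). Shmt2, which feeds serine carbon into the same mitochondrial pathway, was steadier, with 8.93, 8.71 and 7.80 after withaferin A, against 7.84, 7.77 and 7.10 in untreated cells. It missed the threshold with a change of 0.91 (SE 0.30, adjusted p = 0.109), and withaferin A array 3 lay between the untreated values.

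Asns, which makes asparagine and whose promoter is printed above, had 12.59, 12.27 and 11.27 after withaferin A, against 11.07, 12.15 and 9.88 in untreated cells. Its untreated arrays 2 and 3 differed by 2.26 log2 units (4.79-fold), more than the fitted change of 1.01 (95% interval -0.15 to 2.17, limma adjusted p = 0.265). Gpt2, the mitochondrial alanine transaminase, had 8.79, 8.54 and 7.43 after withaferin A, against 6.67, 8.17 and 5.84 in untreated cells (log2 change 1.36, adjusted p = 0.161). Untreated array 2 was again above the lowest treated array.

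Neither of the first enzymes of serine synthesis passed. Phgdh, its entry enzyme, had 10.16, 10.23 and 9.32 after withaferin A, against 9.58, 10.01 and 9.01 in untreated cells (log2 change 0.37, limma adjusted p = 0.489). Psat1, the next enzyme, had 12.66, 12.45 and 11.79 after withaferin A, against 11.80, 11.92 and 11.56 in untreated cells (log2 change 0.54, adjusted p = 0.187). Psat1 had the narrowest untreated range of the synthesis genes, 0.37 log2 units. Aldh18a1, which starts proline synthesis from glutamate, had a change of 0.53 with an interval of -0.35 to 1.40.

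Of the amino acid transporters, 1 of 5 rose (Slc1a4), 0 fell and 4 did not pass, with 5 of 5 changes positive and a median log2 change of 0.79. This was the steadiest group in untreated cells, with no untreated range over 1 log2 unit (0 of 5). Slc7a1 was above background on 1 untreated array and Slc1a5 on 2, which limits the range these probes can show. The mean of the 5 transporters was 8.95, 8.98 and 8.34 on withaferin A arrays 1 to 3, against 7.96, 8.00 and 7.63 on untreated arrays, with no overlap. Without Slc1a4 the groups overlapped, and the mean of the other 4 was 8.38, 8.44 and 7.70 on withaferin A arrays 1 to 3, against 7.69, 7.75 and 7.32 on untreated arrays.

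Slc1a4 encodes ASCT1, a sodium-dependent exchanger of alanine, serine and cysteine. Before any normalization its probe read 2264.5, 2366.7 and 1807.4 on withaferin A arrays 1 to 3, against 661.9, 650.0 and 527.0 on untreated arrays 1 to 3. After normalization the log2 levels were 11.26, 11.17 and 10.92 after withaferin A, against 9.06, 9.03 and 8.86 in untreated cells, or 11.12 ± 0.18 against 8.99 ± 0.11 (SD, n = 3 arrays each). The rise was 4.38-fold (log2 change 2.13, SE 0.16, 95% interval 1.78 to 2.49, limma adjusted p = 0.000101), and by p it ranked 17 of 9756 genes. Its untreated values differed 1.15-fold at most. The log2 change stayed between 2.06 and 2.23 when each array was left out, with adjusted p up to 0.00127.

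None of the other transporters passed. Slc7a1, the cationic amino acid transporter that carries arginine and lysine, had 5.99, 6.25 and 5.44 after withaferin A, against 5.36, 4.89 and 4.78 in untreated cells. The groups were apart but the probe was above background on 3 treated arrays and 1 untreated array, and the change of 0.88 narrowly missed the threshold (SE 0.24, limma adjusted p = 0.0613). Before any normalization the groups overlapped, with 96.4 on withaferin A array 3 and 102.5 on untreated array 1. The log2 change was 0.41 without background correction (adjusted p = 0.119) and 0.98 with median scaling (0.0415). Slc1a5, the glutamine exchanger ASCT2, was above background on 2 arrays of each group (log2 change 0.79, interval -0.15 to 1.73).

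The system A transporters Slc38a1 and Slc38a2, which carry small neutral amino acids into the cell with sodium, were above background on all 6 arrays. Slc38a1 had 8.92, 8.94 and 8.50 after withaferin A, against 8.15, 8.59 and 7.97 in untreated cells (log2 change 0.55, limma adjusted p = 0.143). The other tested probes of Slc38a1 had log2 changes of 0.48, 0.18 and 0.071. Slc38a2, the member best known for control by amino acid supply, had 12.09, 12.17 and 12.08 after withaferin A, against 11.98, 12.07 and 11.91 in untreated cells. On this probe the treated values were all above the untreated ones, yet the change was 0.12 with an interval of -0.20 to 0.44, and without normalization between arrays it turned to -0.0037. A second probe above background on all 6 arrays had 10.95, 11.04 and 10.77 after withaferin A, against 10.99, 10.80 and 11.16 in untreated cells, where the groups overlapped (log2 change -0.065).

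Among amino acid transporters outside the set, 3 of 12 tested genes rose and 0 fell. Slc7a11, the cystine and glutamate exchanger, had 12.11, 12.22 and 11.13 after withaferin A, against 8.68, 9.45 and 8.28 in untreated cells, 8.10-fold higher. Slc6a9, the glycine transporter GLYT1, had 12.19, 11.94 and 11.73 after withaferin A, against 9.61, 10.70 and 9.00 in untreated cells, 4.54-fold higher. Slc3a2, the heavy chain that pairs with Slc7a11 and Slc7a5 products, was 3.00-fold higher. The adjusted p by limma was 0.00154, 0.00957 and 0.0325 in that order. All 3 had untreated array 2 highest and array 3 lowest, as most members did, but their changes were larger than their untreated ranges of 1.16, 1.70 and 1.41 log2 units. Slc3a2 no longer passed when withaferin A array 1 (adjusted p = 0.121) or 2 (0.0996) or untreated array 1 (0.0760) or 3 (0.107) was left out, without background correction (0.0541), or with no filter on dim probes (0.162). The log2 change of Slc3a2 was 1.59 in the main fit, 1.02 without background correction and 1.02 in the deposited value table.

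Of the cytosolic aminoacyl-tRNA synthetases of the set, 0 of 13 passed, with 13 of 13 changes positive, between 0.10 and 0.98, and a median of 0.42. Without normalization between arrays Eprs came to -0.15. These enzymes join each amino acid to its tRNA. Untreated array 3 was the lowest untreated array for all 13, array 2 the highest for 11, and withaferin A array 3 the lowest treated array for 12. Their mean was 9.56, 9.52 and 8.97 on withaferin A arrays 1 to 3, against 8.90, 9.23 and 8.34 on untreated arrays. The untreated range was over 1 log2 unit for 5 of the 13.

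Cars, the cysteine enzyme, had 9.19, 9.26 and 8.32 after withaferin A, against 8.57, 8.23 and 7.04 in untreated cells (log2 change 0.98, SE 0.39, limma adjusted p = 0.161). Aars, the alanine enzyme, had 10.86, 10.88 and 10.06 after withaferin A, against 9.76, 10.59 and 8.71 in untreated cells (log2 change 0.92, SE 0.42, adjusted p = 0.214). In both the lowest treated value, on withaferin A array 3, lay below an untreated value. Nars, the asparagine enzyme, had 10.26, 10.29 and 9.52 after withaferin A, against 9.20, 9.52 and 8.97 in untreated cells, where the lowest treated and highest untreated values met (log2 change 0.80, SE 0.24, adjusted p = 0.0811).

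Mars1, the methionine enzyme, had 9.97, 9.64 and 9.05 after withaferin A, against 9.22, 9.25 and 7.98 in untreated cells (log2 change 0.74, limma adjusted p = 0.234). Sars, the serine enzyme, had 9.34, 9.05 and 8.89 after withaferin A, against 8.36, 9.89 and 8.18 in untreated cells (log2 change 0.28, adjusted p = 0.705). In Sars untreated array 2 was above every treated array, the pattern of Ddit3 and Trib3. Gars, the glycine enzyme, had 13.35, 13.21 and 12.75 after withaferin A, against 12.54, 12.83 and 12.14 in untreated cells (log2 change 0.60, adjusted p = 0.142). The other 7, for glutamate and proline (Eprs), histidine (Hars), isoleucine (Iars), leucine (Lars), threonine (Tars), tryptophan (Wars) and tyrosine (Yars), had changes between 0.10 and 0.54 and adjusted p between 0.156 and 0.810.

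Synthetases outside the set lay closer to level over the 6 arrays. The 6 other cytosolic ones that were tested (Farsa, Farsb, Kars, Qars, Rars and Vars) had means of 9.81, 9.82 and 9.74 on withaferin A arrays 1 to 3, against 9.85, 9.89 and 9.82 on untreated arrays, and a median log2 change of 0.022. Untreated array 3 was the lowest untreated array for 1 of the 6. 1 of the 6 fell, the valine enzyme Vars, by 0.74 (SE 0.17, limma adjusted p = 0.0402), and 0 rose. The call of Vars was lost without any array other than untreated array 2, with adjusted p of 0.102, 0.114 and 0.0641 without withaferin A arrays 1 to 3 and of 0.0797 and 0.120 without untreated arrays 1 and 3. The 13 tested mitochondrial synthetases had a median log2 change of 0.0056 and 0 passed, the smallest p being that of Ears2 (log2 change 0.47, adjusted p = 0.0970). The untreated range was over 1 log2 unit for 0 of the 6 and for 5 of the 13 members. The difference between the lists was not tested.

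**Figure D4:**
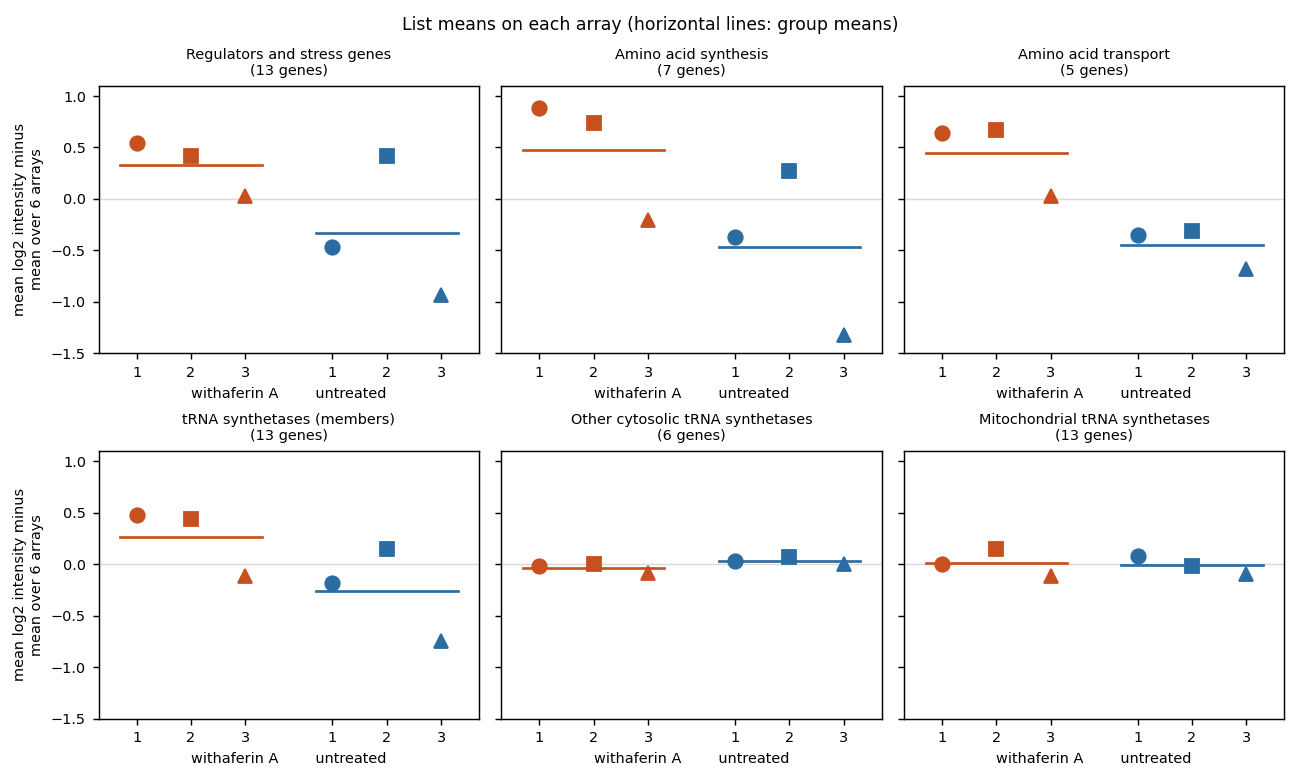
Mean log2 intensity of each list on each array, minus its mean over the 6 arrays (y axis), with withaferin A arrays 1 to 3 in orange and untreated arrays 1 to 3 in blue, and group means as lines. The 4 groups of members are low on array 3 of each group and, apart from the transporters, high on untreated array 2, whereas the 6 other cytosolic and 13 mitochondrial synthetases stay nearly level.

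Lists around the programme were read on the same arrays. Genes of the eIF2 kinases and eIF2 machinery, which act upstream of ATF4, had 0 of 13 passing and a median log2 change of 0.29, with the smallest p for Eif2ak2, the kinase PKR (log2 change -0.65, limma adjusted p = 0.0533). Other genes linked to ATF4 had 1 of 13 falling and a median of -0.043, and untreated array 2 was the highest untreated array for 11 of the 13. The gene that fell was Gadd45a, a growth arrest gene, with 9.32, 8.65 and 8.99 after withaferin A, against 10.11, 11.26 and 10.44 in untreated cells, 3.07-fold lower (adjusted p = 0.0138, and 0.0520 without untreated array 3). Endoplasmic reticulum chaperones and genes of the unfolded protein response had 0 of 13 passing, a median of 0.064 and the smallest p for Xbp1 (log2 change -0.63, adjusted p = 0.187).

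The p53 targets had 1 of 9 rising, the cell cycle inhibitor Cdkn1a (3.66-fold, limma adjusted p = 0.00611). Mitosis genes had 2 of 11 falling, Nusap1 and Kif11, and a median log2 change of -0.70, with means of 9.42, 8.77 and 9.01 on withaferin A arrays 1 to 3, against 10.14, 9.37 and 9.91 on untreated arrays. Nusap1 was 2.56-fold lower (adjusted p = 0.0272), a call lost without untreated array 1 (0.0743) or 3 (0.108). Kif11 was 1.86-fold lower (adjusted p = 0.0444), a call kept only without untreated array 2 among the 6 fits that left out 1 array, and lost without background correction (0.0569). Leaving out the filter on dim probes added probes to the fit and to the adjustment. With no filter, the calls of Cdkn1a (0.0676), Gadd45a (0.0989), Slc6a9 (0.0918), Vars (0.0857), Nusap1 (0.135) and Kif11 (0.144) were lost. Hypoxia and glycolysis genes had 0 of 16 passing and a median of 0.27, with the smallest p for the glucose transporter Slc2a1 (log2 change 1.14, adjusted p = 0.0810).

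The hypoxia and glycolysis list also varied widely among untreated arrays, in the opposite order. Its mean was 11.56, 11.04 and 12.10 on withaferin A arrays 1 to 3, against 11.52, 10.30 and 11.86 on untreated arrays 1 to 3. It was thus lowest on array 2 and highest on array 3 in both groups. The members' mean was highest on untreated array 2 and lowest on array 3 of each group. Untreated array 2 was the highest untreated array for 0 of its 16 genes, against 31 of the 38 members. The part of these differences between arrays of 1 group in the members' values was not tested.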

How the data were processed

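Total RNA of 6 samples was hybridised to Illumina mouse bead arrays, 3 from cells given withaferin A and 3 from untreated cells. The authors deposited 1 table of bead intensity per probe and array, which from its values was neither normalized nor background-subtracted. Beside it the deposited table holds a fraction per probe whose header names a detection p; since it grows with intensity, it was taken as 1 minus the detection p. The authors also deposited a value table of log2 intensities, which its values show to be centred on the mean of each same-numbered pair of arrays. Its column medians were 0.000566, 0.00265 and 0.00108 on withaferin A arrays 1 to 3, and -0.000566, -0.00265 and -0.00108 on untreated arrays 1 to 3. The pair differences in this table had correlations across probes with those computed here of 0.963, 0.966 and 0.961, and raw log2 ratios had slopes of 1.01, 1.11 and 1.05 on them, which settles its scale and its direction. How it was normalized between arrays is unknown. The scanner's software was not given in the sources used here.

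From the intensities, background was removed by normexp, with negative controls inferred through the detection p and an offset of 16, followed by quantile normalization and log2 (the steps of neqc) in limma 3.58.1 with R 4.3.3. A probe was tested if 3 or more of the 6 arrays gave it a detection p under 0.05, which left 19077 of 45281 probes. They were compared with lmFit and eBayes, two-sided, with Benjamini-Hochberg adjustment over them and a threshold of 0.05. Each gene took the value of its brightest tested probe, by mean log2 level. Names came from the platform annotation through a probe's single symbol (34885 probes with 1 symbol, 18 with several, 10378 not listed). Errors are SDs over 3 arrays or limma SEs with 95% intervals. The procedure was tested on simulated data. Alternatives covered background correction, normalization, the value table, the filter, probes per gene, the variance model, the replicate block and each array left out.

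Every member was accounted for. Values on every array are given for called members and, in each of the 4 groups of members, for up to 6 members with the largest change or untreated range. From each other list, up to 3 called genes with the largest change were named, or the one with the smallest p. The array values of Ppp1r15a and Cebpb lie outside this rule and were added after their values were seen. Members and lists were chosen with earlier results of these data known, so no p is given for a list.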

Additional observations from a re-analysis of the deposited data

How the results depend on the processing

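Of the results tried under other settings, the median change of members stayed positive under all of them (0.41 to 0.91), and Slc1a4 passed under all. All genes called, 666 here, came to 1688 without normalization between arrays (160 higher and 1528 lower, with the median of all genes shifted to -0.23), 2687 in the deposited value table, 337 with no filter on dim probes, 1023 with the replicate block, 2150 with array weights, and 238 to 886 when 1 array was left out. Members called, 2 here, came to 28 in the value table, 1 with no filter, 14 with the replicate block, 25 with array weights, and 1 to 10 when 1 array was left out. Array weights gave withaferin A array 1 a weight of 10.19 and stopped before convergence. Members whose groups did not overlap, 7 here, came to 3 without normalization and to 7 to 28 when 1 array was left out. With 1 array left out, 3 arrays face 2, and such groups separate more easily in any gene. The share over all genes was not counted under these settings, so these counts are not a result about the members. The value table gives no spread or overlap within a group, since its pairs are centred. Some changes near 0 turned sign. Without normalization Slc38a2 came to -0.0037 and Eprs to -0.15. When 1 array was left out, Trib3 ranged from -0.0029 to 1.27, Eprs from -0.026 to 0.29 and Sars from -0.038 to 0.82, each lowest without untreated array 3 and highest without untreated array 2. Cebpg came to 0.047 with median scaling, 0.0087 in the value table, 0.044 with probes averaged, 0.11 with array weights and -0.11 to 0.20 when 1 array was left out. Deviations of same-numbered arrays from their group means correlated at 0.267, -0.0386 and 0.318, and not every array correlated best with its own number. Some lists did share an order by number. Array 3 was lowest in each group for most members, and the hypoxia and glycolysis mean was lowest on array 2 and highest on array 3 in both groups. The labels do not say what a number shares, so the main fit did not pair the arrays. Whether same-numbered arrays share a culture or passage cannot be told from these values. The causes of these shifts were not tested.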
